A study of Homo sapiens with 6 samples.

Results

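The MYC, MAX and MXD network is a set of basic helix-loop-helix leucine zipper transcription factors that share the small dimer partner MAX or its relative MLX. It was followed here through 10 genes listed by symbol: MYC, MAX, MXD1, MXD3, MXD4, MXI1, MNT, MLX, MLXIP and MGA. All 10 were found among the 16200 genes of the deposited table, and all 10 passed the filter on low counts. RNA was taken from RBE, an established cell line of human bile duct cancer (cholangiocarcinoma), and poly(A)-tailed transcripts were sequenced in 6 libraries. The 3 libraries labelled NC served as the control, a name the labels do not spell out, and the other 3 are labelled sgKCNQ3, the customary way to write a guide RNA aimed at KCNQ3, a potassium channel subunit gene. The kind of guide-directed enzyme, the time after its delivery, and whether the cells were a pool or a clone are not stated in the sources used here, and no drug or other treatment is named in the sample labels for either group. Nothing in the labels says that the 3 libraries of a group came from separate cultures, so each p-value measures only the spread among these libraries, and that spread may be technical.

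MYC binds DNA only as a dimer with MAX, at the E-box, for which the letters CACGTG are the best known form, and activates genes of growth, ribosome production and metabolism. The MXD proteins (MXD1, MXI1, MXD3 and MXD4) and MNT also pair with MAX at E-boxes, where they recruit the SIN3-HDAC corepressor, and MGA pairs with MAX within a Polycomb complex, PRC1.6. These factors are therefore called antagonists of MYC. MLX pairs with MLXIP (MondoA), a factor whose activity follows glucose, and also with MXD1, MXD4 and MNT. MYC protein has a short life and is stabilised by phosphorylation through ERK, so its mRNA need not follow its protein, which was not analysed here.

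Libraries held 15601283 to 16089500 estimated counts. The targeted gene had 256, 257 and 252 counts in NC and 222, 206 and 191 in sgKCNQ3. KCNQ3 thus fell by 20.4% (log2 fold change -0.33, SE 0.0841, edgeR quasi-likelihood adjusted p 0.00446), and all sgKCNQ3 values lay under all NC values. On log2(TPM + 1) its difference passed no threshold (-0.15, limma adjusted p 0.151). All 6 biliary carcinoma markers (KRT7, KRT8, KRT18, KRT19, EPCAM, SOX9) were tested, with a summed level of 3439 to 3556 CPM, that is counts scaled to a fixed library total, in NC and 3769 to 3965 in sgKCNQ3. Markers of other cell types summed to 9.01 to 10.74 CPM in NC and 10.01 to 11.12 in sgKCNQ3, and none of the 14 in the table was at 0 in all 6 libraries. The part of these marker levels in the results below was not tested. In a bulk sample, fewer cells of a type and less RNA per cell cannot be told apart.

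MYC was by far the most abundant mRNA of the network. Levels between genes are compared as TPM, the authors' value per transcript length. In NC, MYC lay at 252, 266 and 259 TPM, which placed it, over all 6 libraries, at rank 561 of 12565 tested genes. MLX (61.4 ± 0.874 TPM) and MAX (58.2 ± 2.07 TPM) followed (SD, n = 3), and their NC ranges overlapped, so that their order was not settled. MYC mRNA therefore stood 4.45 times above the mRNA of its obligate partner MAX. All antagonists were scarcer still. MXD4 stood at 17.1 TPM, MXD1 at 13.4, MNT at 10.98, MXI1 at 7.81, MXD3 at 6.37 and MGA at 4.07 TPM in the NC mean. MLXIP, at 12.0 TPM, stood between MXD1 and MNT. The ranges of MXI1 and MXD3 overlapped in NC, while each other neighbouring pair from MXD4 down to MGA did not. In sgKCNQ3, MLXIP (12.2 ± 1.20 TPM) and MXI1 (11.5 ± 0.777 TPM) both had higher means than MXD1 (11.3 ± 1.10 TPM) and MNT (10.1 ± 1.42 TPM), but the ranges of these genes overlapped, so that their order there was not settled.

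**Figure D1:**
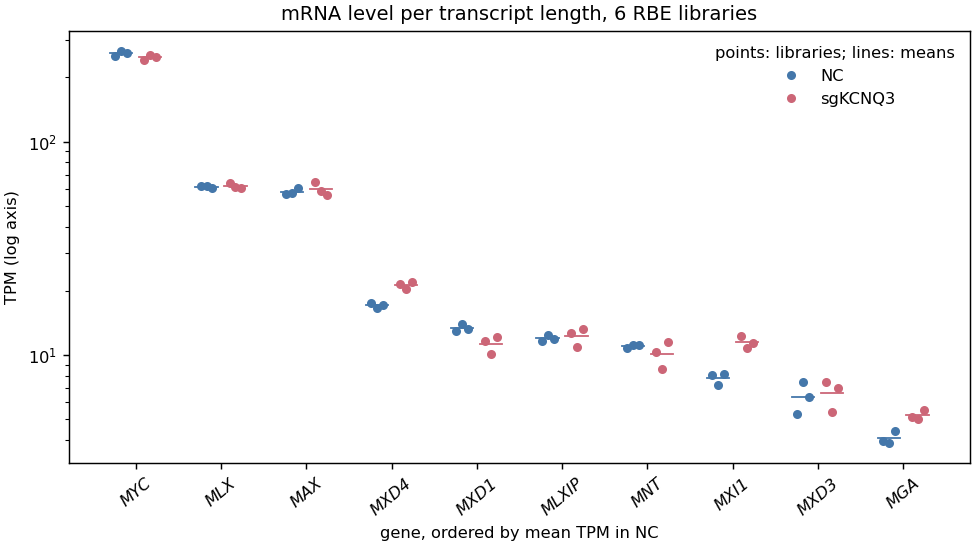
TPM of the 10 network genes (log axis) in each of the 6 libraries, 3 NC and 3 sgKCNQ3, with group means as lines. MYC, at 242 to 266 TPM over the 6 libraries, lies above every other gene, and MGA, at 3.86 to 5.52 TPM, is lowest in both group means.

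The other family members that could replace MYC or MLXIP were scarce. MYCN had 1 count in sgKCNQ3 replicates 1 and 3 and was at 0 in the other 4 libraries, and it was not tested. MYCL lay at 1.06 ± 0.150 TPM in the NC libraries and 1.29 ± 0.230 in the sgKCNQ3 libraries. MLXIPL, which encodes the glucose-responsive factor ChREBP, lay at 3.04 ± 0.503 and 3.53 ± 0.677 TPM. Neither MYCL nor MLXIPL passed the test (edgeR adjusted p 0.557 and 0.521).

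Several network genes and MYC targets carry the E-box itself near their start, and those matches are shown because the letters are what these proteins read. RefSeq promoter windows (GRCh38.p14, 250 bases before to 50 after a start) were matched for 9 of the 10 members, with 14 windows in all. MYC itself had no window and was not searched. CACGTG, which is its own reverse complement, was found in the windows of MXD4, MNT and MLX, that is 3 of 9 members, against 8.78% of all 27305 genes with a window. These windows were rich in G and C, at 55.0% to 76.0%. Below, the E-box is in capitals and only bases upstream of the start that lie in no annotated exon are given, 5′ to 3′ on the strand of the gene. The MXD4 match begins 238 bases before the start (minus strand, shown chr4:2262317-2262359), that of MNT 193 bases before it (minus strand, chr17:2401223-2401278), and that of MLX 50 bases before it (plus strand, chr17:42567025-42567067).
MXD4: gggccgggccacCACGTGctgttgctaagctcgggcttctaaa
MNT: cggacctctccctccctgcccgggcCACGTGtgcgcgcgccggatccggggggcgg
MLX: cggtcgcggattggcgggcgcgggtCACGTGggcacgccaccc
Of these 3 genes MXD4 was higher in sgKCNQ3, and MNT and MLX passed no threshold. The variant CACGCG (searched on both strands, so also as CGCGTG) stood in 3 of the 14 windows, 1 each of MGA, MXD3 and MXI1, against 11.4% of the 35116 windows searched. The letters CATGTG (or CACATG), searched in the same way, stood in no member window, against 11.1% of the windows searched. A match describes letters in a window and is not evidence that a protein binds there.

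Between the groups, 5 of the 10 members were called at an adjusted p under 0.05, against 29.1% of all genes tested. MXI1, MXD4 and MGA, all antagonists, were higher in sgKCNQ3 (3 of 10, background 14.0%). MYC and the antagonist MXD1 were lower (2 of 10, background 15.1%). The differences were small, with a median absolute size of 0.14 on the log2 scale over the members and 0.12 over all tested genes. The median log2 fold change was -0.05 over the members and -0.01 over all tested genes. With length and GC trends removed, 2 members were called higher (background 10.5%) and 3 lower (background 15.9%), and on log2(TPM + 1) 3 were called higher (background 20.6%) and 1 lower (background 4.88%). CPM of the groups did not overlap for 6 members (the 5 called and MLX), against 41.7% of tested genes. TPM did not overlap for 4 members (MXD1, MXD4, MXI1 and MGA), against 42.5% of tested genes.

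MYC, the activator of the network, was modestly lower. MYC (Entrez gene ID 4609) maps to chromosome 8 (plus strand, 127735434 to 127741434), by GENCODE release 29 on GRCh38, as for the positions that follow. The targeted gene KCNQ3 lies on the same chromosome (minus strand, 132120858 to 132481019). Any part of this shared location in the MYC values was not tested. The CPM of MYC was 605, 633 and 612 in the NC libraries and 540, 583 and 549 in the sgKCNQ3 libraries. Every sgKCNQ3 library was below every NC library, and sgKCNQ3 replicate 2 lay closest to NC. MYC thus fell by 9.64% (log2 fold change -0.15, SE 0.0372, edgeR adjusted p 0.00432). With its high counts, 8590 to 10028 per library, counting error adds little to that SE. The call ended on the TPM scale, where the values were 252, 266 and 259 in the NC libraries and 242, 255 and 248 in the sgKCNQ3 libraries, so that the groups overlapped (difference in log2(TPM + 1) -0.06, limma adjusted p 0.290). That scale moves the median over all tested genes from -0.01 to 0.06. The call also just failed without sgKCNQ3 replicate 1 (log2 fold change -0.12, edgeR adjusted p 0.0504). With trends over transcript length and GC content removed, MYC remained called at -0.10 (edgeR adjusted p 0.0225).

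MAX, the shared partner, passed no threshold. Its CPM was 60.5, 61.8 and 64.1 in the NC libraries and 65.2, 59.4 and 56.8 in the sgKCNQ3 libraries, with the highest and the lowest value both in sgKCNQ3. The log2 fold change was -0.04 (SE 0.0537, edgeR adjusted p 0.619), and its sign was positive on log2(TPM + 1) (0.04). MAX maps to chromosome 14 (minus strand, 65006174 to 65102695).

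**Figure D2:**
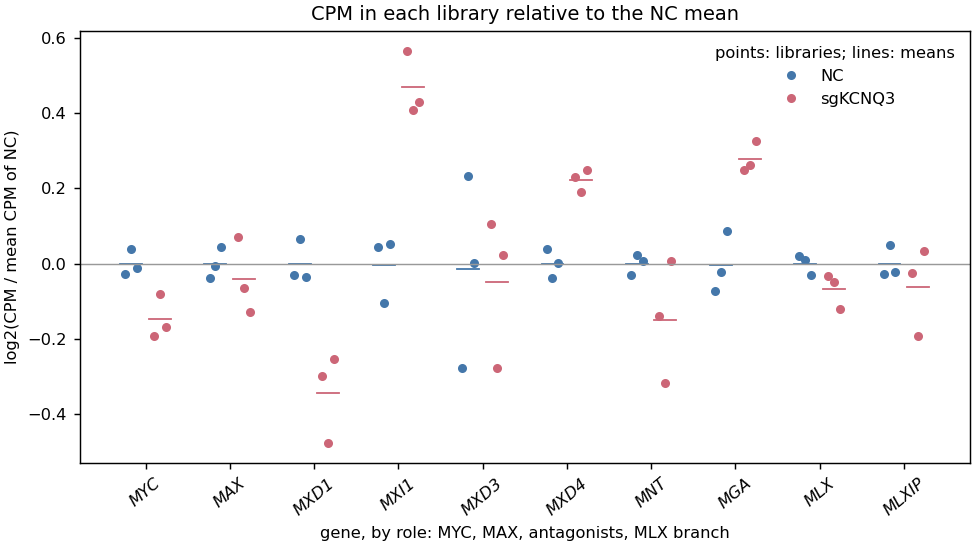
CPM of each network gene in each library, as log2 of its ratio to the NC mean, ordered by role. The sgKCNQ3 points of MXI1, MXD4 and MGA lie above all NC points, those of MYC, MXD1 and MLX below them, and the groups overlap for MAX, MXD3, MNT and MLXIP.

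The MXD antagonists did not move together. MXI1 had the largest rise of the network. Its CPM was 16.3, 14.7 and 16.4 in the NC libraries and 23.4, 21.0 and 21.3 in the sgKCNQ3 libraries. All sgKCNQ3 libraries were above all NC libraries, with a log2 fold change of 0.47 (SE 0.0783, edgeR adjusted p 7.05e-05), a rise of 38.6%. MXI1, which encodes the repressor also named MXD2, maps to chromosome 10 (plus strand, 110207605 to 110287365), and its 3 RefSeq promoter windows start transcripts that a value per gene does not separate. MXD4 rose as well. Its CPM was 42.1, 39.9 and 41.0 in the NC libraries and 48.1, 46.8 and 48.7 in the sgKCNQ3 libraries, with groups apart by more than their spread. The rise was 16.9% (log2 fold change 0.23, SE 0.0541, edgeR adjusted p 0.00271). MXD4, a repressor known from differentiating and resting cells, maps to chromosome 4 (minus strand, 2247432 to 2262294).

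MXD1, the founding member of the family and known for its induction in differentiating cells, went the other way. Its CPM was 46.1, 49.3 and 45.9 in the NC libraries and 38.3, 33.8 and 39.5 in the sgKCNQ3 libraries. No sgKCNQ3 library reached the NC range, and replicate 2 was lowest. MXD1 fell by 20.9% (log2 fold change -0.34, SE 0.0613, edgeR adjusted p 1.87e-04). It maps to chromosome 2 (plus strand, 69897688 to 69942945), and 3.73% of its exon bases are shared with SNRNP27. MXD3, a family member linked to proliferating cells, was scarce and variable. It had 43, 63 and 53 counts in NC and 58, 44 and 55 in sgKCNQ3. The groups overlapped (log2 fold change -0.04, SE 0.172, edgeR adjusted p 0.880), and the sign was positive in 4 of 15 alternative fits. A difference of the size seen for MXD4 could not be told from this spread. MXD3 maps to chromosome 5 (minus strand, 177301461 to 177312757). It shares 22.5% of its exon bases with PRELID1 on the opposite strand and 18.0% with RAB24 on the same strand, and the strand handling of the counting is not given, so its value is uncertain.

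The MXD family genes called here kept their direction and their call in every alternative run. Over 15 alternatives for each gene, the log2 fold change was 0.42 to 0.51 for MXI1, 0.21 to 0.30 for MXD4 and -0.42 to -0.23 for MXD1. The highest adjusted p among them was 0.00190 for MXI1, 0.0153 for MXD4 and 0.0435 for MXD1.

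MNT and MGA, the larger antagonists, differed from each other in outcome. MNT, a widely expressed repressor, had CPM of 30.3, 31.4 and 31.1 in the NC libraries and 28.1, 24.8 and 31.1 in the sgKCNQ3 libraries. The sgKCNQ3 libraries spread widely, and replicate 3 lay within the NC range. The log2 fold change of -0.14 passed no threshold (SE 0.0714, edgeR adjusted p 0.136), and it depended on single libraries. It was -0.06 without sgKCNQ3 replicate 2 (edgeR adjusted p 0.602), and -0.22 and called without sgKCNQ3 replicate 3 (edgeR adjusted p 0.0294). MNT maps to chromosome 17 (minus strand, 2384060 to 2401118). MGA, a very large protein that carries a T-box DNA-binding domain beside its helix-loop-helix domain, had CPM of 22.9, 23.7 and 25.6 in the NC libraries and 28.6, 28.9 and 30.2 in the sgKCNQ3 libraries. All sgKCNQ3 libraries were higher, a rise of 21.3% (log2 fold change 0.28, SE 0.0669, edgeR adjusted p 0.00274). MGA maps to chromosome 15 (plus strand, 41621224 to 41773081). Its longest annotated coding transcript, of 14439 bases with 42.0% GC, is the longest of the network. With each library's trends over length and GC content removed, its log2 fold change was 0.14 and was no longer called (edgeR adjusted p 0.103).

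**Figure D3:**
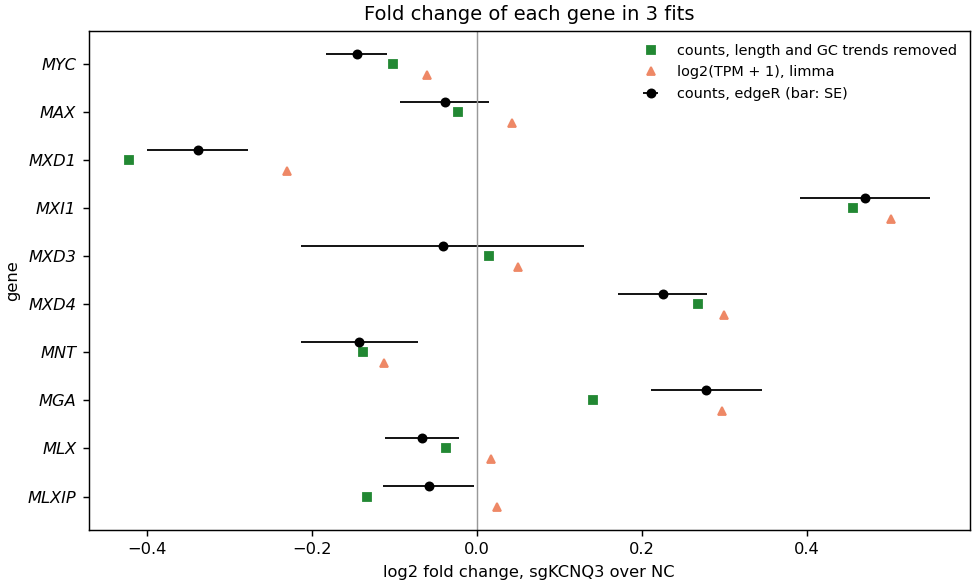
Log2 fold change (sgKCNQ3 over NC) of each network gene from the counts with edgeR (bars are SE), from the counts with length and GC trends removed, and on log2(TPM + 1) with limma. MXI1, MXD4 and MXD1 keep their side and their call in all 3 fits, with MXD1 between -0.42 and -0.23, while MGA drops from 0.28 to 0.14 with the trends removed and MYC moves to -0.06 on the TPM scale.

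In the MLX branch neither gene was called. MLX had CPM of 85.8, 85.1 and 82.8 in the NC libraries and 82.6, 81.7 and 77.8 in the sgKCNQ3 libraries. These groups were apart by a narrow margin, but the log2 fold change of -0.07 passed no threshold (SE 0.0451, edgeR adjusted p 0.277), and its sign was positive on log2(TPM + 1) (0.02). MLX maps to chromosome 17 (plus strand, 42567068 to 42573239), and shares 18.1% of its exon bases with PSMC3IP on the opposite strand. MLXIP had CPM of 63.3, 66.8 and 63.5 in the NC libraries and 63.4, 56.5 and 66.0 in the sgKCNQ3 libraries. Only sgKCNQ3 replicate 2 lay below the NC range. Its log2 fold change was -0.06 (SE 0.0548, edgeR adjusted p 0.448). With length and GC trends removed it was called lower (-0.13, edgeR adjusted p 0.0426), while on log2(TPM + 1) its sign was positive (0.02, limma adjusted p 0.837). MLXIP maps to chromosome 12 (plus strand, 122078722 to 122147347).

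The balance of MYC against its antagonists can be read within each library, where the scaling between libraries cancels. Trends over length and GC content that differ between libraries do not cancel, and the ratios were not recomputed with them removed. MYC TPM was divided by the summed TPM of MXD1, MXD3, MXD4, MXI1, MNT and MGA. This ratio was 4.31, 4.40 and 4.30 in the NC libraries and 3.54, 4.24 and 3.57 in the sgKCNQ3 libraries. All 3 sgKCNQ3 values were lower, but replicate 2 lay just under NC. The means were 4.34 ± 0.0568 and 3.78 ± 0.394 (SD, n = 3 each), a difference of -0.20 in log2 ratio. The exact two-sided permutation p was 0.1, the smallest that 3 against 3 libraries allow, and 0.3 adjusted over the 3 ratios tested. The summed antagonists themselves were 58.6, 60.3 and 60.4 TPM in the NC libraries and 68.5, 60.3 and 69.5 TPM in the sgKCNQ3 libraries. In replicate 2 of sgKCNQ3 the sum was thus inside the NC range, and each of the 6 antagonists had its lowest sgKCNQ3 TPM in that library. MXD3, whose value is uncertain, was at 5.41 TPM there and at 7.49 and 6.98 TPM in sgKCNQ3 replicates 1 and 3.

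The ratio of MYC to MAX was 4.46, 4.62 and 4.29 in the NC libraries and 3.73, 4.36 and 4.39 in the sgKCNQ3 libraries. The groups overlapped (difference in log2 ratio -0.10, exact permutation p 0.3, adjusted 0.45), and replicate 1 of sgKCNQ3 stood apart from the other two. Without that library the difference was -0.03. For MLXIP over MLX the ratio was 0.195 ± 0.00687 in the NC libraries and 0.197 ± 0.0198 in the sgKCNQ3 libraries (SD, n = 3 each). That difference was 0.01 in log2 ratio (exact permutation p 0.9, adjusted 0.9), and it changed sign when NC replicate 1 or sgKCNQ3 replicate 3 was left out.

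Genes known to be activated by MYC, where called on counts, were lower with 1 exception and most by a small amount. On log2(TPM + 1) most calls were higher, for these genes as for all tested genes. Of 44 tested MYC-activated targets, 14 were called lower with edgeR (background 15.1%) and 1 higher (background 14.0%), with a median log2 fold change of -0.09 beside -0.01 over all tested genes. On log2(TPM + 1), 2 were called lower (background 4.88%) and 7 higher (background 20.6%), with a median of -0.01 beside 0.06 over all tested genes. Of the 15 genes called with edgeR, 3 were called in the same direction there (ODC1, SLC7A5 and HSPE1) and 1, BOP1, in the other. BOP1, a gene of ribosome assembly named after its values were seen, was at -0.13 with edgeR (adjusted p 0.0271) and 0.21 on log2(TPM + 1) (limma adjusted p 0.0243). ODC1, the first enzyme of polyamine synthesis, went from 1122 ± 24.8 CPM down to 797 ± 30.6 CPM (log2 fold change -0.49, SE 0.0364, edgeR adjusted p 2.70e-10). SLC7A5, an amino acid transporter, fell from 516 ± 10.5 to 387 ± 18.9 CPM (log2 fold change -0.42). NME1, a nucleoside diphosphate kinase, and NOP56, a nucleolar protein of ribosome assembly, fell less (-0.19 and -0.15). Neither was called on log2(TPM + 1) (-0.12 and -0.07, limma adjusted p 0.0557 and 0.202), and NOP56 was at -0.10 with length and GC trends removed. Beyond ODC1 and SLC7A5, no member called with edgeR had a change of more than 0.25 on the log2 scale. HSPE1, a mitochondrial chaperonin and the only member called higher with edgeR (0.22), was named after its value was seen. With length and GC trends removed, 9 were called lower (background 15.9%) and 1 higher (background 10.5%), with a median of -0.05. Without sgKCNQ3 replicate 1, 7 were called lower (background 10.6%) and 1 higher (background 11.0%).

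The E-box is common at these target genes. CACGTG stood in a promoter window of 22 of the 40 listed targets with a window (55.0%), against 8.78% of all genes with a window, expressed or not. The targets are a textbook list and the background is not matched for GC content, so this excess was not tested. The matches upstream of ODC1 and SLC7A5 are shown because those genes fell most. A second ODC1 match lies downstream of the start and is not shown. The upstream ODC1 match begins 29 bases before the start (minus strand, shown chr2:10448013-10448066) and that of SLC7A5 130 bases before it (minus strand, chr16:87869607-87869662), with the E-box in capitals.
ODC1: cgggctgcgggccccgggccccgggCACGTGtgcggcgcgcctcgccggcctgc
SLC7A5: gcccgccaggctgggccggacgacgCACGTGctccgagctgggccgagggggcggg
With edgeR, 15.1% of all tested genes were called lower and 14.0% higher. Of 21 tested targets with a match, 6 were called lower and 1 higher, with a median log2 fold change of -0.10. Of 17 with a window and no match, 5 were called lower and 0 higher, with a median of -0.05 (edgeR). The difference between these sets was not tested.

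Genes known to be repressed by MYC went both ways. Of 8 tested, 3 were called lower (background 15.1%) and 2 higher (background 14.0%), with a median log2 fold change of -0.12. The median over all tested genes was -0.01. With length and GC trends removed, the list median was -0.03, beside -0.01 over all tested genes. On log2(TPM + 1) it was -0.03, beside 0.06 over all tested genes. On log2(TPM + 1), 2 were called lower (background 4.88%) and 3 higher (background 20.6%). GADD45A, which is induced by stress and arrests growth, went from 151 ± 3.07 CPM down to 98.2 ± 7.11 CPM (log2 fold change -0.62, edgeR adjusted p 3.92e-10). The cell cycle inhibitor gene CDKN1A (-0.23) and NDRG1, a gene of stress and hypoxia (-0.26), fell as well. On log2(TPM + 1) CDKN1A was at -0.15 and NDRG1 at -0.17, where NDRG1 was no longer called. CDKN1B, another cell cycle inhibitor gene, rose (0.18), but its call was lost without NC replicate 3 and without sgKCNQ3 replicate 1. Without NC replicate 3 the list held 3 calls in place of 5, 3 lower (background 11.1%) and 0 higher (background 10.2%).

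Targets of MondoA and ChREBP were mostly higher although MLX and MLXIP were not called. Of 9 tested, 5 were called higher (background 14.0%) and 2 lower (background 15.1%), with a median log2 fold change of 0.16. With length and GC trends removed, 4 were called higher (background 10.5%) and 2 lower (background 15.9%), with a median of 0.07. TXNIP, the best known MondoA target and an inhibitor of glucose uptake, went from 159 ± 2.95 CPM up to 209 ± 3.99 CPM (log2 fold change 0.40, SE 0.0384, edgeR adjusted p 2.65e-08). The lipid synthesis genes SCD (0.37), FASN (0.19) and ACACA (0.19), which also answer to other lipid regulators, rose. ACACA was not called with length and GC trends removed (0.07, edgeR adjusted p 0.148). ARRDC4, a close relative of TXNIP in its regulation, stood at 0.03 on the log2 scale and was not called (edgeR adjusted p 0.840). It is named here after its value was seen.

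The corepressor and Polycomb partners of the antagonists were called about as often as all genes with edgeR. Of 18 tested SIN3-HDAC subunits, 3 were called higher and 3 lower, that is 33.3% against 29.1% of all tested genes, with a median of 0.09. The histone-binding subunit RBBP4 rose (0.27, edgeR adjusted p 2.96e-05) and its close relative RBBP7 fell (-0.16). RBBP4 was at 0.14 with length and GC trends removed. RBBP7 was not called on log2(TPM + 1) (-0.08, limma adjusted p 0.228) or without NC replicate 1 (-0.12, edgeR adjusted p 0.062). ARID4A (0.30) and ARID4B (0.23) rose too, but neither was called with length and GC trends removed. With library size alone as the scaling, 8 subunits were called higher (background 18.5%) and 2 lower (background 10.2%), and on log2(TPM + 1) 8 higher (background 20.6%) and 0 lower (background 4.88%). Of 13 tested PRC1.6 partners of MGA, 2 were called higher and 1 lower with edgeR, that is 23.1% against 29.1% of all tested genes, with a median of 0.01. EHMT2, a histone H3 methyltransferase, rose (0.24), TFDP1, a partner of E2F factors, rose (0.14), and RING1, a ubiquitin ligase of Polycomb complexes, fell (-0.21). RING1 lost its call with length and GC trends removed and on log2(TPM + 1), and TFDP1, at 0.22 on log2(TPM + 1), lost its call without NC replicate 1 (0.09) or sgKCNQ3 replicate 2 (0.11).

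Cofactors of MYC and enzymes of its turnover were called in both directions with edgeR, and nearly all higher on log2(TPM + 1). Of 26 tested, 8 were called higher (background 14.0%) and 9 lower (background 15.1%), with a median log2 fold change of 0.00. SKP2, a ubiquitin ligase subunit that acts on MYC and CDKN1B, rose from 9.47 ± 1.28 to 14.4 ± 1.29 CPM (log2 fold change 0.61, edgeR adjusted p 7.66e-05). BPTF (0.37), a chromatin remodelling subunit, rose as well, and AURKA (-0.24), a mitotic kinase that protects MYC family proteins from breakdown, fell. BPTF was at 0.24 with length and GC trends removed, and AURKA at -0.16 on log2(TPM + 1). With length and GC trends removed, 4 were called higher (background 10.5%) and 7 lower (background 15.9%), and on log2(TPM + 1) 10 higher (background 20.6%) and 1 lower (background 4.88%). Of 11 other tested E-box binding factors, 1 was called higher and 3 lower with edgeR, that is 36.4% against 29.1% of all tested genes. The higher one was TFAP4 (0.35), itself a known MYC target. The lower ones were the lysosomal regulator TFE3 (-0.35, edgeR adjusted p 6.49e-07) and the clock genes BHLHE40 (-0.16) and ARNTL (-0.18). BHLHE40 was not called on log2(TPM + 1) (-0.07, limma adjusted p 0.241). ARNTL lost its call in 9 of 15 alternatives, 5 of which left out a library.

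Across the 6 libraries, the genes whose profile lay closest to that of MYC were IMMT, RPS2, SHB, DAPK3 and PRKCE. Likeness was the root mean square difference of centred log2 CPM, over 9467 protein-coding genes with a mean of at least 10 CPM. It was 0.00971 for IMMT, a mitochondrial cristae protein gene, and 0.0128 for RPS2, a ribosomal protein gene with near-identical pseudogene copies whose value may share reads with them. It was 0.0140 for the adaptor gene SHB, 0.0145 for the kinase gene DAPK3 and 0.0148 for the kinase gene PRKCE. Pearson's r with MYC was 0.985 to 0.998 over the same 6 libraries, which share the group difference that MYC carries. These genes were picked for likeness over those libraries, so a high r and a similar fold change follow from that choice. Their log2 fold changes ranged from -0.17 (RPS2) to -0.12 (PRKCE), and 4 of these 5 were called, PRKCE being the exception (edgeR adjusted p 0.118).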

How the data were processed

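Per the file headers, the authors deposited estimated counts for each gene without normalization, and TPM and FPKM beside them. A deposited signal column for each library (counts over a factor), the deposited group means and a deposited rounded score entered no test. The submitters' processing notes name GRCh38.p13 as the genome build. Aligner, counter and strand handling: not given in the sources used here. Groups and replicate numbers came from the titles.

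Estimated counts were rounded and fitted over the whole table with edgeR 4.0.16 (R 4.3.3): filterByExpr with a minimum count of 10 left 12565 genes, followed by TMM scaling, robust quasi-likelihood F tests and Benjamini-Hochberg adjustment, with a threshold of 0.05. SE was the size of the log2 fold change over the square root of F. CPM uses TMM-scaled library sizes. Ratios of TPM were compared by exact two-sided permutation (scipy 1.17.1), which cannot go below 0.1 for 3 against 3. The fits were tested on simulated counts without length or GC trends, with counts over library totals in place of TPM. That test could not judge the removal of those trends or the TPM scale. Alternatives were RLE or no scaling factors, DESeq2 1.42.0, limma-voom and limma-trend (limma 3.58.1, on log2(TPM + 1)), no filter, at least 2 CPM in 3 libraries, a replicate block, length and GC trends removed (splines with 5 degrees of freedom, longest coding transcript in GENCODE release 29, 16062 genes matched), and each library left out.

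The members and the lists were chosen with earlier results of these data known, and the lists are textbook lists. Named genes were the members, KCNQ3, up to 4 called genes per list with the smallest p, and the 5 profiles closest to MYC. A gene that this rule takes is not reported here. Promoter windows came from RefSeq.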

Additional observations from a re-analysis of the deposited data

How the results depend on the processing

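Each ratio was recomputed with CPM in place of TPM, with the replicate block and with each library left out. Each member's fold change and each list count was recomputed under all the alternatives. MXI1, MXD4 and MXD1 kept their call in all 15. MYC was not called on log2(TPM + 1) or without sgKCNQ3 replicate 1, and MGA not with length and GC trends removed. The number of members called lower was 2 (background 15.1%). It was 1 on log2(TPM + 1) (background 4.88%) and 3 with length and GC trends removed (background 15.9%). It ranged from 1 to 3 when a library was left out, where 21.2% to 27.4% of all tested genes were called in either direction. The number called higher was 3 in every alternative but the removal of length and GC trends, where it was 2 (background 10.5%). The background for higher calls was 14.0% with edgeR and 20.6% on log2(TPM + 1). On log2(TPM + 1), 9 MYC-activated targets were called (20.5%, background 25.5%), 7 of them higher (background 20.6%). With edgeR 15 were called (34.1%, background 29.1%), 14 of them lower (background 15.1%). MYC cofactors and turnover genes had 11 calls on log2(TPM + 1) (42.3%, background 25.5%), 10 of them higher (background 20.6%). They had 11 with length and GC trends removed (42.3%, background 26.4%), 7 of them lower (background 15.9%). With library size alone 10 SIN3-HDAC subunits were called (55.6%, background 28.7%), 8 of them higher (background 18.5%). With a library left out, calls ranged from 8 to 18 for MYC-activated targets (18.2% to 40.9%). They ranged from 3 to 5 for MYC-repressed targets (37.5% to 62.5%), beside 21.2% to 27.4% of all tested genes. Among the members, signs turned only for those not called. On log2(TPM + 1) the log2 fold change was 0.0426 for MAX, 0.0499 for MXD3, 0.0167 for MLX and 0.0238 for MLXIP, and with length and GC trends removed 0.0141 for MXD3. With a library left out it ranged from -0.0927 to 0.0085 for MAX, -0.162 to 0.0916 for MXD3 and -0.101 to 0.0111 for MLXIP, and the difference in the log2 ratio of MLXIP to MLX from -0.0613 to 0.0841. The cause was not tested. Replicate numbers are shared by the groups. Deviations of same-numbered libraries had correlations of 0.0136, -0.0977 and 0.0078, and those of the other pairs -0.08 to 0.0651. With 3 libraries per group, these values cannot decide whether same-numbered libraries share a batch. With the replicate block, 3 members were called higher and 2 lower, 3136 genes were called in place of 3658, and the difference in the log2 ratio of MYC to its antagonists was -0.20 (exact sign-flip p 0.25, the smallest that 3 pairs allow). Counts limit MXD3 most, at 43 to 63 per library.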
